A study of Mus musculus with 12 samples.

Results

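Prostaglandins, thromboxane and leukotrienes are made by a short chain of enzymes from arachidonic acid. The genes of these enzymes were followed in mouse spleen across 3 diets. Members were chosen by gene symbol, as Ptgs1, Ptgs2, Ptgis, Tbxas1 and Ptges of the cyclooxygenase branch and Alox5, Alox5ap, Alox15, Lta4h and Ltc4s of the lipoxygenase branch. Of these 10 genes 9 were measured, of 19057 genes with a symbol on the array, each by the probe with the highest mean over 12 mice. Ptgs1, the constitutive cyclooxygenase, was not analysed here. No measured member differed between diets at an adjusted p of 0.05. The 3 members with the smallest p-values were Alox5 and Tbxas1, with higher means on HFD-ED, and Ptgis, with a lower mean on HFD-ED.

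Spleen RNA came from male C57BL/6J mice that were bought at 6 weeks of age, acclimatized for 3 weeks and fed for 8 weeks, and each of 4 mice per diet had its own array. The HFD-ED diet held 15 g fat per 100 g, made of 10 g coconut oil, 3 g corn oil and 2 g of an oil rich in eicosapentaenoic acid (EPA) and docosahexaenoic acid (DHA), with 1 g cholesterol. The HFD-CO diet held the same fat and cholesterol, with 10 g coconut oil and 5 g corn oil. Control mice received 5 g fat per 100 g diet, as 2.5 g each of corn oil and coconut oil, and no cholesterol. HFD-ED and HFD-CO thus differed in 2 g of oil. Both differed from control in total fat, corn oil, coconut oil and cholesterol together. By the diet table of the paper, they also differed from it in casein, sucrose, corn starch and some minor ingredients. The authors chose the mice, from larger groups kept in shared cages, by their weight and by triglyceride and cholesterol in plasma. Fewer cells of a type and less RNA per cell cannot be told apart in whole spleen. The tissue labels and the paper give spleen, whereas both the design text and the extraction protocol of the deposit name skeletal muscle. Over the 12 mice, 7 of 7 skeletal muscle markers had means under 7.5, and the samples were treated as spleen. Mylpf alone of them was above that line within a diet, with 7.54 on HFD-ED, 7.37 on HFD-CO and 7.35 on control (HFD-ED minus control 0.19, unadjusted p = 0.0131 and adjusted p = 0.378 from limma).

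Free arachidonic acid is released from membranes by phospholipases A2. Cyclooxygenases turn it into prostaglandin H2, which separate synthases convert into prostacyclin, thromboxane A2 or prostaglandin E2. The 5-lipoxygenase branch needs the membrane protein FLAP and yields leukotriene A4, from which a hydrolase makes leukotriene B4 and a glutathione-conjugating synthase makes leukotriene C4. EPA, one of the fatty acids of the HFD-ED oil, competes with arachidonic acid for the same enzymes. In spleen, macrophages, neutrophils, mast cells and platelets are known sources of these lipids.

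Upstream sequence was available in the RefSeq table (GRCm38.p6) for 7 of the 10 members, and 3 windows of 250 bases before the transcript start are shown. Tbxas1 and Alox5 are the members with the smallest p-values between HFD-ED and HFD-CO, and Ltc4s is shown beside them as the lipoxygenase branch member with an entry and a mean of 7.5 or higher. Capitals mark 3 short motifs searched on both strands. The motif GAGGAA is the core recognised by PU.1, a transcription factor of myeloid cells. The others were TATAAA, the TATA box, and GGGCGG, to which Sp1 binds. The windows lie at chr6:38918736-38918985 on the plus strand for Tbxas1, at chr6:116461179-116461428 on the minus strand for Alox5 and at chr11:50238533-50238782 on the minus strand for Ltc4s. The Tbxas1 start lies inside the span that RefSeq gives the gene.
Tbxas1: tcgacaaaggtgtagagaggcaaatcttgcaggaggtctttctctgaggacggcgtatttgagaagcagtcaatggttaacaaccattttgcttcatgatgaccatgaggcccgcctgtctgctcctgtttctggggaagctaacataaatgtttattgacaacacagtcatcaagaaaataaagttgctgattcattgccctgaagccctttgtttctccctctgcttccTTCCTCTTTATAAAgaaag
Alox5: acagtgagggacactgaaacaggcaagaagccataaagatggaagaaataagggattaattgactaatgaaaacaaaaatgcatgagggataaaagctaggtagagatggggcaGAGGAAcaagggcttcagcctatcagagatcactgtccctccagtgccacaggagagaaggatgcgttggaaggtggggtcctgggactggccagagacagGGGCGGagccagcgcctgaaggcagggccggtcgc
Ltc4s: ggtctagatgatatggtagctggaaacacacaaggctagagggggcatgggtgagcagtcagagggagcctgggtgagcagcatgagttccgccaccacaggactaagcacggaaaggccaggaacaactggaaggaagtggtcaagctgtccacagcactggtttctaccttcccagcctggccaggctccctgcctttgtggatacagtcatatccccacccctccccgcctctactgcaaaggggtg
In Tbxas1 a GAGGAA on the opposite strand covers bases 19 to 14 before the start and abuts a TATAAA on the opposite strand at bases 13 to 8, which overlaps a TATAAA on the gene's own strand at bases 11 to 6. Alox5 holds a GAGGAA at bases 136 to 131 and a GGGCGG at bases 35 to 30, and the Ltc4s window holds none of these letters. GAGGAA stands in 23.3% of 32851 RefSeq promoter windows of the same length, GGGCGG in 32.7% and TATAAA in 12.4%. Of the 7 windows of members, 6 held GAGGAA. These motifs were chosen after the sequences had been read, and a match is a description of letters, not of a bound site.

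The deposited levels are on a scale close to log2, reach from 6.95 to 14.79 and have a median of 7.14 on every array. Levels under 7.5 are called dim here, since 75.2% of the 45281 probes have a mean under that line and differences there are compressed. Among the members, Ptgis, Tbxas1, Alox5ap and Ltc4s had means of 7.5 or higher, and Ptgs2, Ptges, Alox5, Alox15 and Lta4h were dim. Arrays of the same diet correlated at 0.971 to 0.995. Over all probes, 0% passed an adjusted p of 0.05 from limma in HFD-ED against control and in HFD-CO against control, and 0.00221% (1 probe) passed in HFD-ED against HFD-CO. Without HFD-ED replicate 1, a mouse whose erythroid markers lay among those of the other diets, there were 87 such probes in HFD-ED against control and 46 in HFD-ED against HFD-CO. At an unadjusted p under 0.05, 10.2% of probes passed in HFD-ED against control, 4.58% in HFD-CO against control and 9.3% in HFD-ED against HFD-CO.

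Read against that background, 0 of 9 members passed the adjusted threshold in each of the 3 comparisons. At an unadjusted p under 0.05 in HFD-ED against control, 1 of 9 was higher (Alox5), beside 4.54% of all probes, and 1 of 9 was lower (Ptgis), beside 5.67%. In HFD-ED against HFD-CO, 2 of 9 were higher (Tbxas1 and Alox5), beside 4.6%, and 0 were lower, beside 4.7%. In HFD-CO against control, 0 of 9 passed either way, beside 2.14% higher and 2.44% lower. Counts of 1 or 2 among 9 genes were not read as a result about the members. The mice of 2 diets did not overlap in 0 of 9 members in each comparison. Over all probes they did not overlap in 1.82% (all higher) and 2.85% (all lower) in HFD-ED against control, in 1.44% and 1.57% in HFD-CO against control, and in 1.73% and 2.24% in HFD-ED against HFD-CO. The median difference of the 9 members was -0.012 log2 units in HFD-ED against control, with 5 of 9 lower, beside a median of -0.00205 and 52.8% lower over all probes. In HFD-CO against control it was -0.00317 with 5 of 9 lower, beside -0.000506 and 50.8%, and in HFD-ED against HFD-CO it was -0.00352 with 5 of 9 lower, beside -0.00176 and 52.4%. The first and the last of these comparisons share the HFD-ED mice, and those with control share the control mice.

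**Figure D1:**
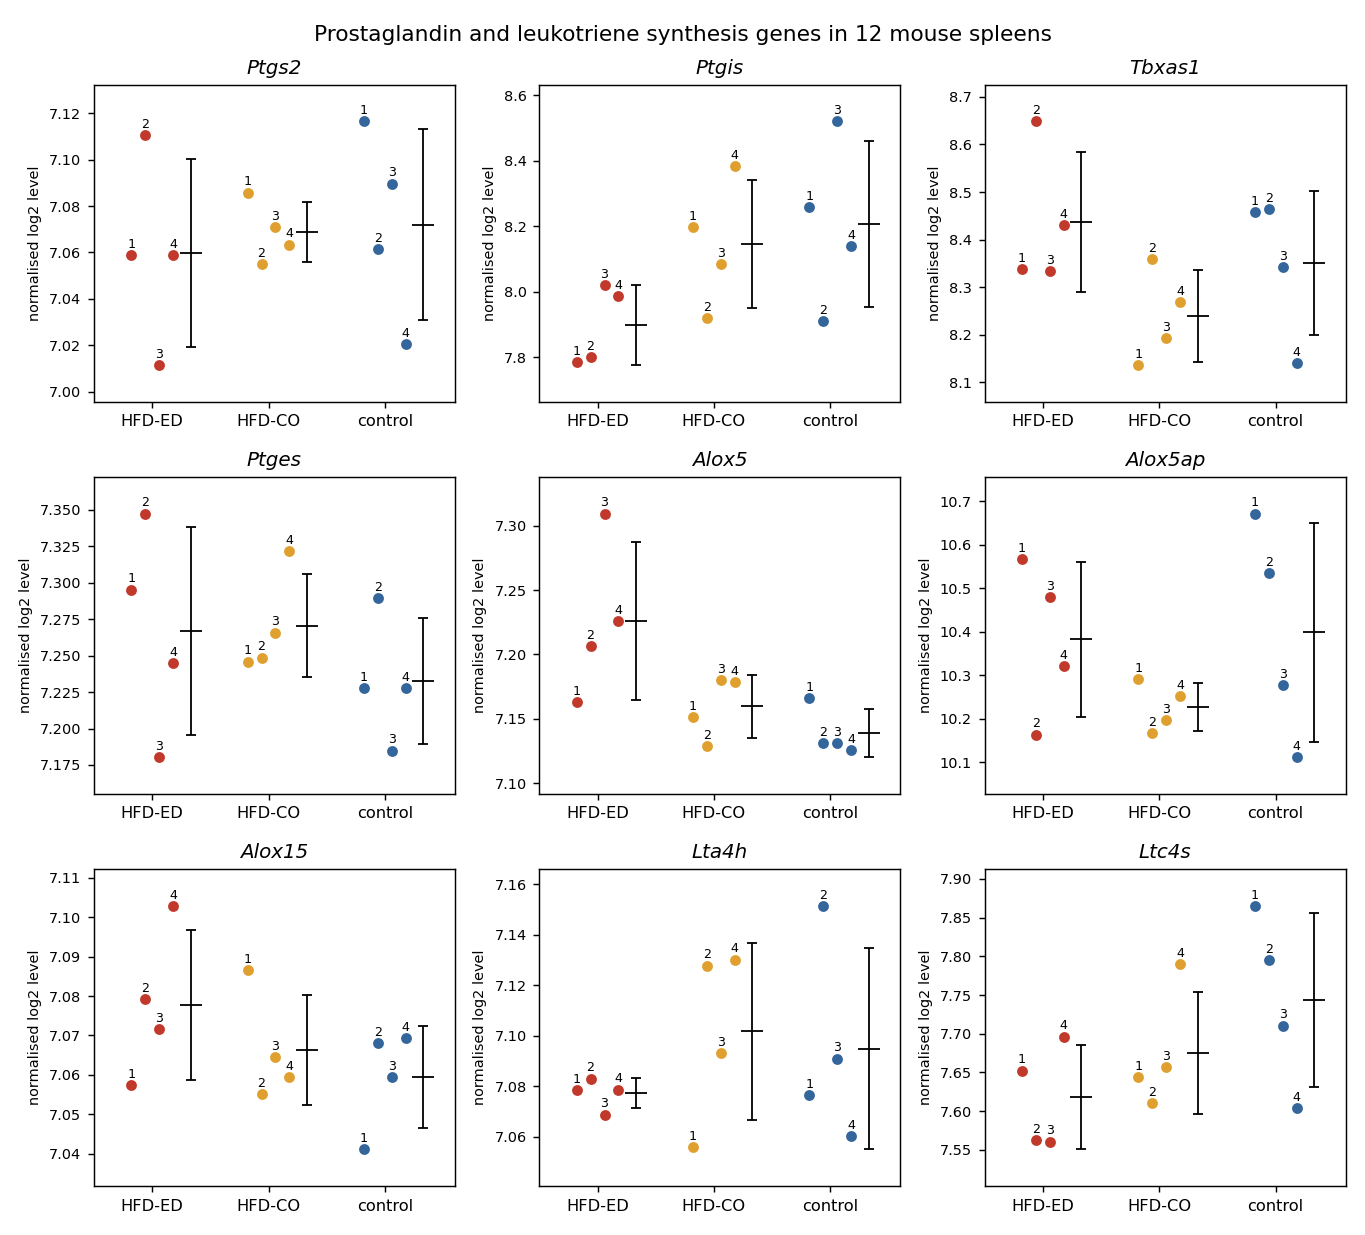
Normalised log2 levels of the 9 measured prostaglandin and leukotriene synthesis genes, with a vertical axis of its own for each gene. Points are mice numbered by replicate, and the horizontal bar and whiskers are the mean and 1 SD of 4 mice per diet; 3 of 4 HFD-ED mice lie above every other mouse in Alox5, and the diets overlap in all 9 genes.

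Ptgis, the prostacyclin synthase (chr2:167203194-167252150), had its lowest mean on HFD-ED. Its levels were 7.79, 7.80, 8.02 and 7.99 in HFD-ED mice, against 8.20, 7.92, 8.08 and 8.38 in HFD-CO mice and 8.26, 7.91, 8.52 and 8.14 in control mice. HFD-ED replicates 1 and 2 were below every mouse of the other diets, while replicates 3 and 4 lay among them. The means were 7.90 ± 0.12 on HFD-ED, 8.15 ± 0.20 on HFD-CO and 8.21 ± 0.25 on control (SD, n = 4 each). The difference of HFD-ED from control was -0.31 log2 units (SE 0.13, 95% interval -0.59 to -0.024, unadjusted p = 0.0361 and adjusted p = 0.451 from limma), or 0.808-fold. Against HFD-CO the difference was -0.25 (95% interval -0.53 to 0.036, adjusted p = 0.602 from limma). HFD-CO and control differed by -0.06 (SE 0.13), within the spread between mice. Without control replicate 3, the highest mouse, HFD-ED minus control was -0.20 (unadjusted p = 0.111 and adjusted p = 0.629 from limma). Without control replicate 2, the lowest control mouse, HFD-ED minus control was -0.41.

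HFD-CO replicates 1 and 4, the mice above 8.15 on that diet in Ptgis, were also the mice with high pancreatic enzyme genes. The summed level of the 6 pancreatic markers was 54.3 and 77.2 in these mice, against 42.5 to 46.8 in HFD-ED mice and 42.4 to 46.7 in control mice. The next highest sums, far below both of these, were those of HFD-ED replicate 1 (sum 46.8, Ptgis 7.785) and control replicate 2 (sum 46.7, Ptgis 7.909). Without HFD-CO replicates 1 and 4, the Ptgis difference of HFD-ED from HFD-CO was -0.10 log2 units (adjusted p = 0.929 from limma). As these mice had the highest Ptgis of their diet, leaving them out had to shrink the difference. The part of pancreatic tissue in Ptgis was not tested. Ptgis is made by endothelium and smooth muscle. The summed level of 6 endothelial markers was 46.8 to 47.6 on HFD-ED, 47.1 to 47.5 on HFD-CO and 47.2 to 47.9 on control. For 9 smooth muscle and stromal markers, of which 4 had means of 7.5 or higher, it was 72.2 to 72.7 on HFD-ED, 72.4 to 73.6 on HFD-CO and 72.5 to 73.6 on control, with a lower mean on HFD-ED in 8 of 9 against HFD-CO and in 6 of 9 against control. Their part in the Ptgis levels was not tested.

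Tbxas1, the thromboxane A synthase of platelets and macrophages (chr6:38864159-39084590), had its highest mean on HFD-ED and its lowest on HFD-CO. It was at 8.34, 8.65, 8.33 and 8.43 in HFD-ED mice, at 8.14, 8.36, 8.19 and 8.27 in HFD-CO mice and at 8.46, 8.46, 8.34 and 8.14 in control mice. Only HFD-ED replicate 2 exceeded every control mouse, and it and replicate 4 exceeded every HFD-CO mouse. Mean levels were 8.44 ± 0.15 on HFD-ED, 8.24 ± 0.097 on HFD-CO and 8.35 ± 0.15 on control (SD, n = 4 each). HFD-ED and HFD-CO differed by 0.20 log2 units (SE 0.087, 95% interval 0.0055 to 0.39, unadjusted p = 0.0449 and adjusted p = 0.526 from limma), or 1.15-fold. The differences from control, 0.09 for HFD-ED and -0.11 for HFD-CO, were within the spread between mice. Without HFD-ED replicate 2 the difference of HFD-ED from HFD-CO was 0.13, and without HFD-CO replicate 2 it was 0.24. The mean over all 4 probes of the gene gave 0.07. A further probe of the same transcript, with a mean of 7.74, gave 0.079 for HFD-ED minus HFD-CO (unadjusted p = 0.168 from limma). Over the 12 mice it correlated with the probe described at r = 0.337, and the dim probes at -0.0418 and -0.217.

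In the platelet lineage, 7 of 7 megakaryocyte and platelet markers had higher means on HFD-ED than on HFD-CO and on control. Their summed level was 62.7 to 67.6 on HFD-ED, 59.8 to 60.9 on HFD-CO and 61.2 to 62.3 on control, so that the HFD-ED mice did not overlap the others. For 8 macrophage and monocyte markers the sum was 77.7 to 79.2 on HFD-ED, 78.3 to 79.8 on HFD-CO and 78.9 to 80.3 on control, and Cd5l and Ccr2 were dim. The part of either cell type in Tbxas1 was not tested.

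Ptgs2, the inducible cyclooxygenase (chr1:150100031-150108234), and Ptges, the microsomal prostaglandin E synthase that works with it (chr2:30889471-30931020), were dim in all 12 mice. Ptgs2 lay between 7.01 and 7.11 in HFD-ED mice, between 7.06 and 7.09 in HFD-CO mice and between 7.02 and 7.12 in control mice. Ptges lay between 7.18 and 7.35 on HFD-ED, between 7.25 and 7.32 on HFD-CO and between 7.18 and 7.29 on control. For both genes the diets overlapped, and no difference between diets was larger than 0.04 log2 units. The 95% intervals of HFD-ED against control were -0.065 to 0.041 for Ptgs2 and -0.043 to 0.11 for Ptges. The transformation compresses differences at these levels, so that these values may understate a change of the transcript.

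**Figure D2:**
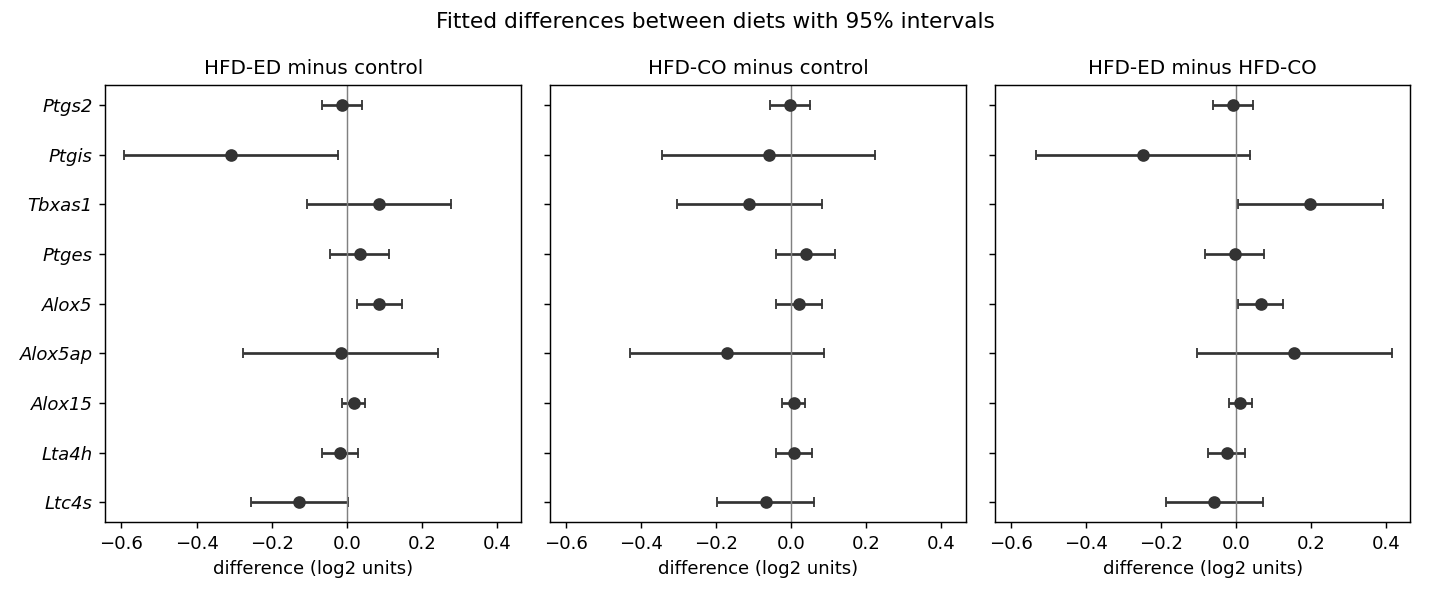
Differences between diets in log2 units for the 9 measured members, as HFD-ED minus control, HFD-CO minus control and HFD-ED minus HFD-CO, with the fitted difference as a point and its 95% interval (not adjusted for the number of probes) as a bar. The interval of Ptgis leaves out 0 in the HFD-ED minus control panel, that of Tbxas1 in the HFD-ED minus HFD-CO panel and that of Alox5 in both.

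Alox5, the 5-lipoxygenase that opens the leukotriene branch (chr6:116410071-116461178), had the smallest unadjusted p of the members. It was dim in every mouse, at 7.16, 7.21, 7.31 and 7.23 in HFD-ED mice, against 7.15, 7.13, 7.18 and 7.18 in HFD-CO mice and 7.17, 7.13, 7.13 and 7.13 in control mice. HFD-ED replicates 2, 3 and 4 were above every mouse of the other diets, and HFD-ED replicate 1 lay among them. The means were 7.23 ± 0.061 on HFD-ED, 7.16 ± 0.025 on HFD-CO and 7.14 ± 0.019 on control (SD, n = 4 each). HFD-ED differed from control by 0.087 log2 units (SE 0.027, 95% interval 0.027 to 0.15, unadjusted p = 0.00889 and adjusted p = 0.346 from limma), or 1.06-fold. From HFD-CO it differed by 0.066 (95% interval 0.0059 to 0.13, unadjusted p = 0.0343 and adjusted p = 0.504 from limma). HFD-CO differed from control by 0.021 (SE 0.027), within the spread between mice. Without HFD-ED replicate 3 the difference from HFD-CO was 0.039, and that from control was 0.059. Without HFD-ED replicate 1 the difference from HFD-CO was 0.087, and that from control was 0.108.

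The other 2 Alox5 probes, with means of 7.10 and 7.13, had differences of 0.025 and 0.044 for HFD-ED minus control and of 0.011 and 0.070 for HFD-ED minus HFD-CO. The probe at 0.070 had an unadjusted p of 0.00784 and an adjusted p of 0.443 from limma. All 3 probes of Alox5 thus had higher means on HFD-ED, and their levels correlated over the 12 mice with r = 0.426 and 0.557 against the probe described. Myeloid cells carry this enzyme. The 10 neutrophil markers summed to 91.1 to 111 on HFD-ED, 85.5 to 90.7 on HFD-CO and 87.4 to 96.7 on control, with 10 of 10 at a higher mean on HFD-ED than on either other diet and Mmp8 dim. For the 9 mast cell and basophil markers the sum was 66.4 to 68.4 on HFD-ED, 65.8 to 65.9 on HFD-CO and 65.9 to 66.5 on control. Of these 9, only Hdc and Gata2 were not dim. The macrophage and monocyte sums given above overlapped between diets. Of those 8 markers, 6 had a lower mean on HFD-ED than on control, and 6 a lower mean than on HFD-CO. HFD-ED replicate 1, the lowest HFD-ED mouse in Alox5, also had the lowest erythroid sum of its diet (71.8, against 83.6 to 89.9 in the other 3 mice). Its neutrophil sum of 91.1 and platelet sum of 62.7 were the lowest of its diet too. Across the 8 erythroid markers the sum was 71.8 to 89.9 on HFD-ED, 70.2 to 80.5 on HFD-CO and 70.7 to 78.4 on control. The platelet sums given above did not overlap between HFD-ED and the other diets. Lymphocyte sums overlapped between diets. For 6 T cell markers they were 54.7 to 57.3 on HFD-ED, 56.9 to 58.2 on HFD-CO and 57.0 to 57.8 on control. For 4 B cell markers they were 37.6 to 39.0 on HFD-ED, 38.8 to 39.4 on HFD-CO and 38.9 to 39.6 on control. On HFD-ED, 5 of 6 T cell and 3 of 4 B cell markers had a lower mean than on either other diet. The exceptions, Cd8a and Pax5, were dim, as was Cd4. The part of any of these cells in the Alox5 levels was not tested.

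Alox5ap, which encodes FLAP, the protein that presents arachidonic acid to 5-lipoxygenase (chr5:149265004-149288153), was well above the dim line. Its levels were 10.57, 10.16, 10.48 and 10.32 in HFD-ED mice, 10.29, 10.17, 10.20 and 10.25 in HFD-CO mice and 10.67, 10.54, 10.28 and 10.11 in control mice. The HFD-CO mice lay close together, between the extremes of both other diets. Mean levels were 10.38 ± 0.18 on HFD-ED, 10.23 ± 0.056 on HFD-CO and 10.40 ± 0.25 on control (SD, n = 4 each). HFD-ED differed from control by -0.02 (95% interval -0.28 to 0.24) and from HFD-CO by 0.16 (95% interval -0.104 to 0.415, adjusted p = 0.746 from limma). HFD-CO differed from control by -0.17 (95% interval -0.43 to 0.087). A further Alox5ap probe, with a mean of 9.94, gave 0.08 for HFD-ED minus control, -0.0065 for HFD-CO minus control and 0.08 for HFD-ED minus HFD-CO. Both probes thus had a lower mean on HFD-CO than on HFD-ED, within the spread between mice, and their sign differed for HFD-ED against control.

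Ltc4s, the leukotriene C4 synthase of mast cells, eosinophils and macrophages (chr11:50236461-50238532), lay just above the dim line. HFD-ED mice had 7.65, 7.56, 7.56 and 7.70, HFD-CO mice 7.64, 7.61, 7.66 and 7.79, and control mice 7.87, 7.80, 7.71 and 7.60. HFD-ED replicates 2 and 3 were below every other mouse, and the means were 7.62 ± 0.068 on HFD-ED, 7.68 ± 0.079 on HFD-CO and 7.74 ± 0.11 on control (SD, n = 4 each). The means thus had the order HFD-ED, HFD-CO, control, and no neighbours in it differed beyond their spread. HFD-ED differed from control by -0.13 (SE 0.058, 95% interval -0.25 to 0.0025, unadjusted p = 0.0539 and adjusted p = 0.497 from limma). The difference was -0.06 against HFD-CO and -0.07 for HFD-CO against control. The 4 eosinophil markers measured summed to 31.2 to 32.0 on HFD-ED, 30.8 to 31.4 on HFD-CO and 30.7 to 31.8 on control. Siglecf and Epx of them were dim. Prg2 had a higher mean on HFD-ED than on either other diet, and Ccr3 a lower one. The part of eosinophils in Ltc4s was not tested.

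Lta4h, the hydrolase that makes leukotriene B4 (chr10:93453396-93484896), and Alox15, the 12/15-lipoxygenase of mouse macrophages (chr11:70344147-70390538), were dim throughout. Lta4h lay between 7.07 and 7.08 in HFD-ED mice, between 7.06 and 7.13 in HFD-CO mice and between 7.06 and 7.15 in control mice. Its single probe was designed on a cDNA clone and not on a RefSeq transcript. Alox15 lay between 7.06 and 7.10 on HFD-ED, between 7.06 and 7.09 on HFD-CO and between 7.04 and 7.07 on control. HFD-ED replicates 2, 3 and 4 were above every control mouse in Alox15 and overlapped the HFD-CO mice, and the difference from control was 0.018 (SE 0.014, adjusted p = 0.717 from limma). For the probes described, no difference of either gene between diets was larger than 0.03 log2 units. The other Alox15 probe gave 0.044 for HFD-ED minus control (unadjusted p = 0.0594 and adjusted p = 0.51 from limma).

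**Figure D3:**
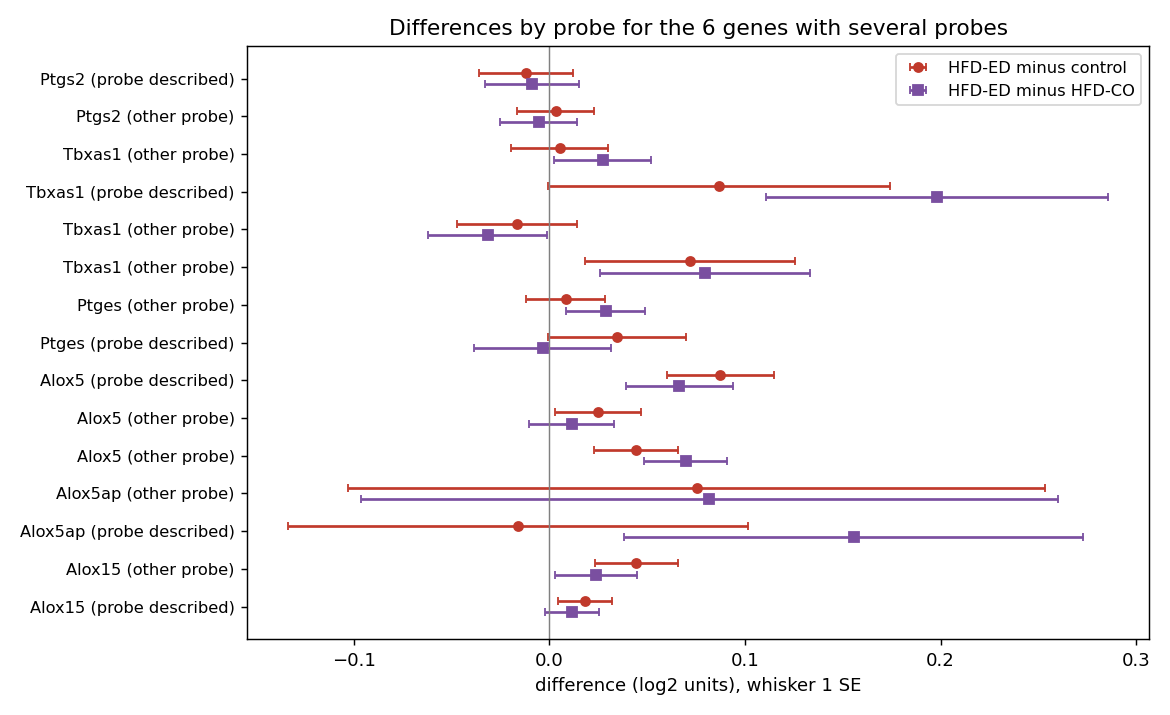
Differences in log2 units, with whiskers of 1 SE, for each probe of the 6 members that have several probes, as HFD-ED minus control (circles) and HFD-ED minus HFD-CO (squares). All 3 Alox5 probes lie above 0 in both comparisons, while of the 4 Tbxas1 probes 3 do and the dim probe at -0.03 does not.

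Above the dim line, the 4 members did not vary as a block from mouse to mouse. Their Pearson's r across 12 mice ran between -0.418 and 0.539. Over all 36 pairs of members it ran between -0.438 and 0.539, and within diets between -0.481 and 0.679. Ptgs2, Ptges, Alox5, Alox15 and Lta4h were dim, with ranges over the mice of only 0.062 (Alox15) to 0.183 (Alox5) log2 units. Differences are compressed there, so a low r of a pair with a dim member cannot decide whether the genes vary together. The pair with the highest r was Alox5ap and Ltc4s, with 0.539 over all mice and 0.679 within diets, and both genes had their 2 highest control levels in control replicates 1 and 2. Within the cyclooxygenase branch Ptgis and Tbxas1 had r = -0.418. These values are descriptions over mice of 3 diets.

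For the 4 members above the dim line, the most similar patterns over the 12 mice were sought among 7013 genes with a mean of 7.5 or higher. Ptgis was closest to C030034I22Rik (r = 0.899, Spearman's rho 0.916, r within diets 0.864), followed by Fgf1 (r = 0.888) and Atp6ap1 (r = 0.877). For Tbxas1 the nearest genes were Cand1 (r = 0.827, rho 0.825, within diets 0.747), Naa35 (r = 0.79) and Coro1c (r = 0.779). Alox5ap ran closest to Eif4g2 (r = 0.868, rho 0.846, within diets 0.866), Cherp (r = 0.852) and Sppl3 (r = 0.834), and Ltc4s to Rbms2 (r = 0.932, rho 0.839, within diets 0.926), Tmcc1 (r = 0.927) and Arap1 (r = 0.92). Without the 2 mice farthest from the member's median, the 12 values of r ran between 0.614 and 0.927, with the lowest for Tbxas1 and Naa35. The highest of 7013 values is large by selection alone, so these are named as descriptions.

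Around the members, 63 of 67 listed genes of the pathway were measured, and 22 of them had means of 7.5 or higher. At an adjusted p of 0.05 from limma, 0 of 63 passed in each comparison. At an unadjusted p under 0.05, 11 of 63 passed in HFD-ED against control (5 higher and 6 lower), 2 in HFD-CO against control (both lower) and 9 in HFD-ED against HFD-CO (7 higher and 2 lower), beside the 10.2%, 4.58% and 9.3% of all probes. The mice did not overlap in 5 of 63 genes in HFD-ED against control (background 4.67%), in 0 in HFD-CO against control (3.01%) and in 4 in HFD-ED against HFD-CO (3.97%). The median difference was -0.0064 in HFD-ED against control, with 39 of 63 lower, beside -0.00205 and 52.8% lower over all probes. In HFD-CO against control it was -0.014 with 39 lower, beside -0.000506 and 50.8%. In HFD-ED against HFD-CO it was 0.0048 with 28 lower, beside -0.00176 and 52.4%.

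**Figure D4:**
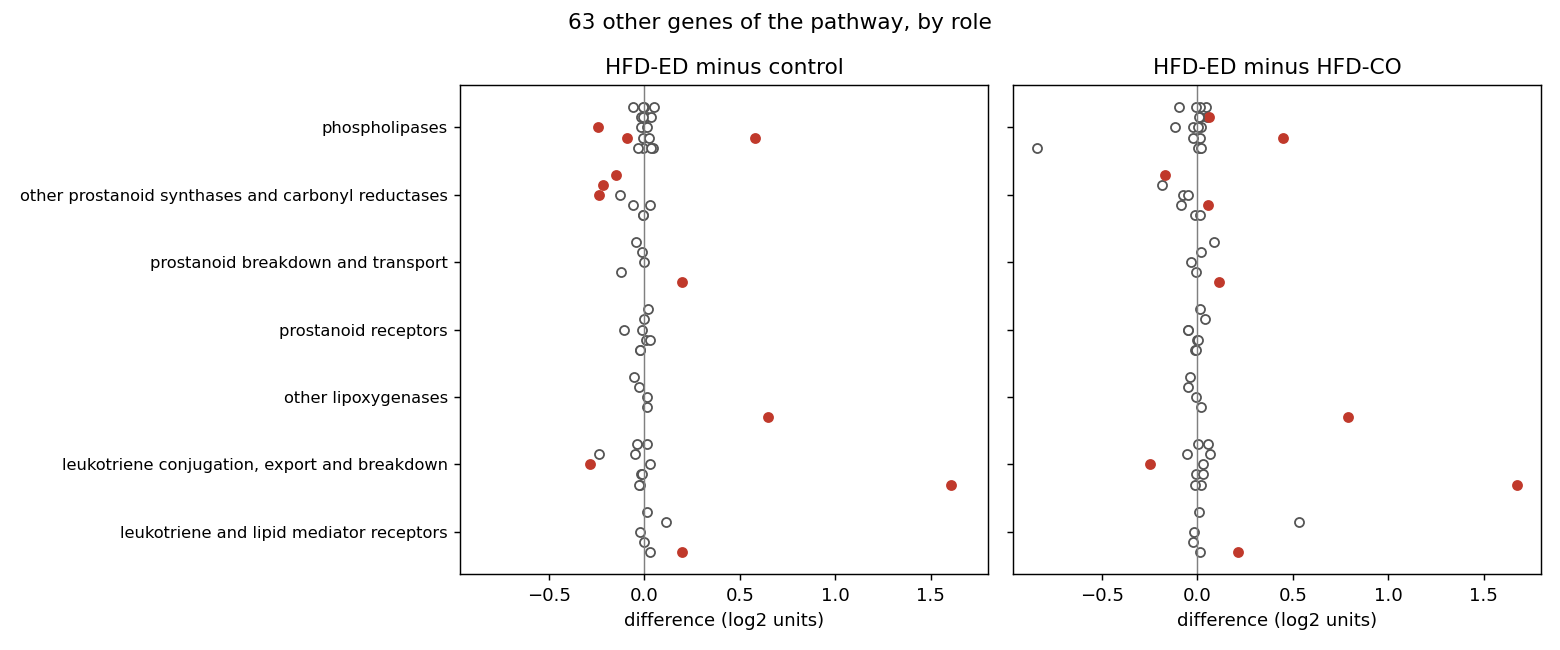
Differences in log2 units for 63 other genes of the pathway in 7 lists by role, with HFD-ED minus control on the left and HFD-ED minus HFD-CO on the right. Each point is a gene, filled where the unadjusted p was under 0.05 (11 genes on the left, 9 on the right), and Mgst3 lies farthest from 0, at 1.61 and 1.67.

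Upstream of both branches stand phospholipases that free arachidonic acid. The list held 20 measured genes named as phospholipases A2, not all of which are known to free it, and 15 were dim. Pla2g12a, a secreted phospholipase A2, was at 8.98, 8.99, 9.81 and 9.63 in HFD-ED mice, against 8.83, 8.96, 8.97 and 8.86 in HFD-CO mice and 8.78, 8.50, 8.84 and 8.98 in control mice. All HFD-ED mice were above all others, replicates 1 and 2 narrowly. The difference was 0.58 from control (adjusted p = 0.344 from limma) and 0.45 from HFD-CO (adjusted p = 0.499). Pla2g4f, a dim cytosolic phospholipase, differed by -0.089 between HFD-ED and control without overlap (adjusted p = 0.312). HFD-CO differed from control by -0.065 (unadjusted p = 0.0242 from limma), with 3 of 4 HFD-CO mice below every control mouse. Between HFD-ED and HFD-CO the difference was -0.024. Pla2g1b, the phospholipase of the pancreas, reached 10.22 in HFD-CO replicate 4, the mouse with the highest pancreatic sum. In the remaining 17 phospholipases, the unadjusted p was under 0.05 for Pla2g2d (-0.24 in HFD-ED minus control) and for Pla2g4c (0.061 in HFD-ED minus HFD-CO), which are named because they complete the count.

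Of the 8 other prostanoid synthases and carbonyl reductases measured, 5 were not dim. Ptges3, known as the Hsp90 co-chaperone p23 and as a cytosolic prostaglandin E synthase, was at 8.82, 8.61, 8.89 and 8.73 in HFD-ED mice, 8.70, 8.66, 8.98 and 8.89 in HFD-CO mice and 9.004, 8.973, 9.047 and 8.971 in control mice. Each HFD-ED mouse was below each control mouse, and so were 3 of 4 HFD-CO mice. HFD-ED differed from control by -0.24 (SE 0.076, adjusted p = 0.36 from limma) and HFD-CO by -0.19. Ptges2, a further prostaglandin E synthase, was dim and differed by 0.057 between HFD-ED and HFD-CO (adjusted p = 0.436). Hpgds, the prostaglandin D synthase of mast cells and macrophages, and Fam213b, a prostamide and prostaglandin F synthase, were picked after their values were seen. Hpgds lay between 7.46 and 7.72 on HFD-ED, between 7.73 and 7.88 on HFD-CO and between 7.64 and 7.82 on control, a difference of -0.17 from HFD-CO without overlap (adjusted p = 0.473) and of -0.15 from control. Fam213b differed by -0.22 between HFD-ED and control (adjusted p = 0.461).

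Among the 5 genes of prostanoid breakdown and transport, Abcc4, an exporter of prostaglandins that platelets also carry, stood apart. It was at 8.194, 8.07, 8.224 and 8.004 in HFD-ED mice, 7.94, 8.03, 8.05 and 8.01 in HFD-CO mice and 7.98, 7.92, 7.83 and 7.96 in control mice. The HFD-ED mice were all above the control mice and overlapped the HFD-CO mice, with differences of 0.20 (SE 0.05, adjusted p = 0.273 from limma) and 0.11 (adjusted p = 0.523). Slco2a1, the prostaglandin uptake transporter, differed by at most 0.13 log2 units between diets. The 8 prostanoid receptors measured had 0 genes at an unadjusted p under 0.05 in each comparison, and 7 of the 8 were dim. Over all probes the shares were 10.2%, 4.58% and 9.3%, so that 0 of 8 was not read as a result about the receptors. Their smallest p-values were those of Ptger2 and Ptger3, the EP2 and EP3 receptors of prostaglandin E2, with differences of at most 0.05 log2 units.

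Of the other lipoxygenases, Alox12, the 12-lipoxygenase of platelets, was the only one of 5 above the dim line. HFD-ED mice had 9.97, 10.09, 10.75 and 10.13, HFD-CO mice 9.38, 9.41, 9.49 and 9.51, and control mice 9.72, 9.56, 9.49 and 9.58. Every HFD-ED mouse was above every mouse of the other diets, as in the summed platelet markers, whose part in it was not tested. The difference was 0.65 from control (SE 0.14, unadjusted p = 0.00067 and adjusted p = 0.251 from limma) and 0.79 from HFD-CO (adjusted p = 0.319). Without HFD-ED replicate 3, the mouse with the highest Alox12, the difference from HFD-CO was 0.62 (SE 0.058) and passed, at an adjusted p of 0.0432. Aloxe3, an epidermal lipoxygenase, was dim and differed by -0.055 between HFD-ED and control.

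In leukotriene conjugation, export and breakdown, 11 genes were measured and 5 were not dim. Mgst3, a microsomal glutathione transferase that can conjugate leukotriene A4, was at 8.57, 11.47, 11.75 and 11.03 in HFD-ED mice, against 8.91, 8.52, 10.12 and 8.59 in HFD-CO mice and 8.67, 8.28, 9.38 and 10.08 in control mice. HFD-ED replicates 2, 3 and 4 were above all other mice, and HFD-ED replicate 1 was not. The difference was 1.61 from control (SE 0.68, adjusted p = 0.457 from limma) and 1.67 from HFD-CO (adjusted p = 0.5). The same 3 mice had the highest sums of the 8 erythroid markers, at 84.4, 89.9 and 83.6, against 71.8 in HFD-ED replicate 1, 70.2 to 80.5 on HFD-CO and 70.7 to 78.4 on control, and the part of red cell precursors in Mgst3 was not tested. Cyp4f16, of the cytochrome P450 family that inactivates leukotriene B4, was at 8.30, 8.33, 7.95 and 8.27 in HFD-ED mice, 8.51, 8.42, 8.40 and 8.49 in HFD-CO mice and 8.56, 8.63, 8.33 and 8.46 in control mice. It differed by -0.28 from control with overlap (adjusted p = 0.344) and by -0.24 from HFD-CO without overlap (adjusted p = 0.473). Cyp4f14, of the same family, was dim and differed by -0.0040 between HFD-ED and HFD-CO (adjusted p = 0.982). Gpx1, a glutathione peroxidase outside these lists that reduces lipid peroxides, lay between 13.38 and 14.65 on HFD-ED, between 13.32 and 14.04 on HFD-CO and between 13.43 and 13.69 on control, and with overlap it differed by 0.54 between HFD-ED and control (adjusted p = 0.489 from limma) and by 0.46 between HFD-ED and HFD-CO (adjusted p = 0.611).

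**Figure D5:**
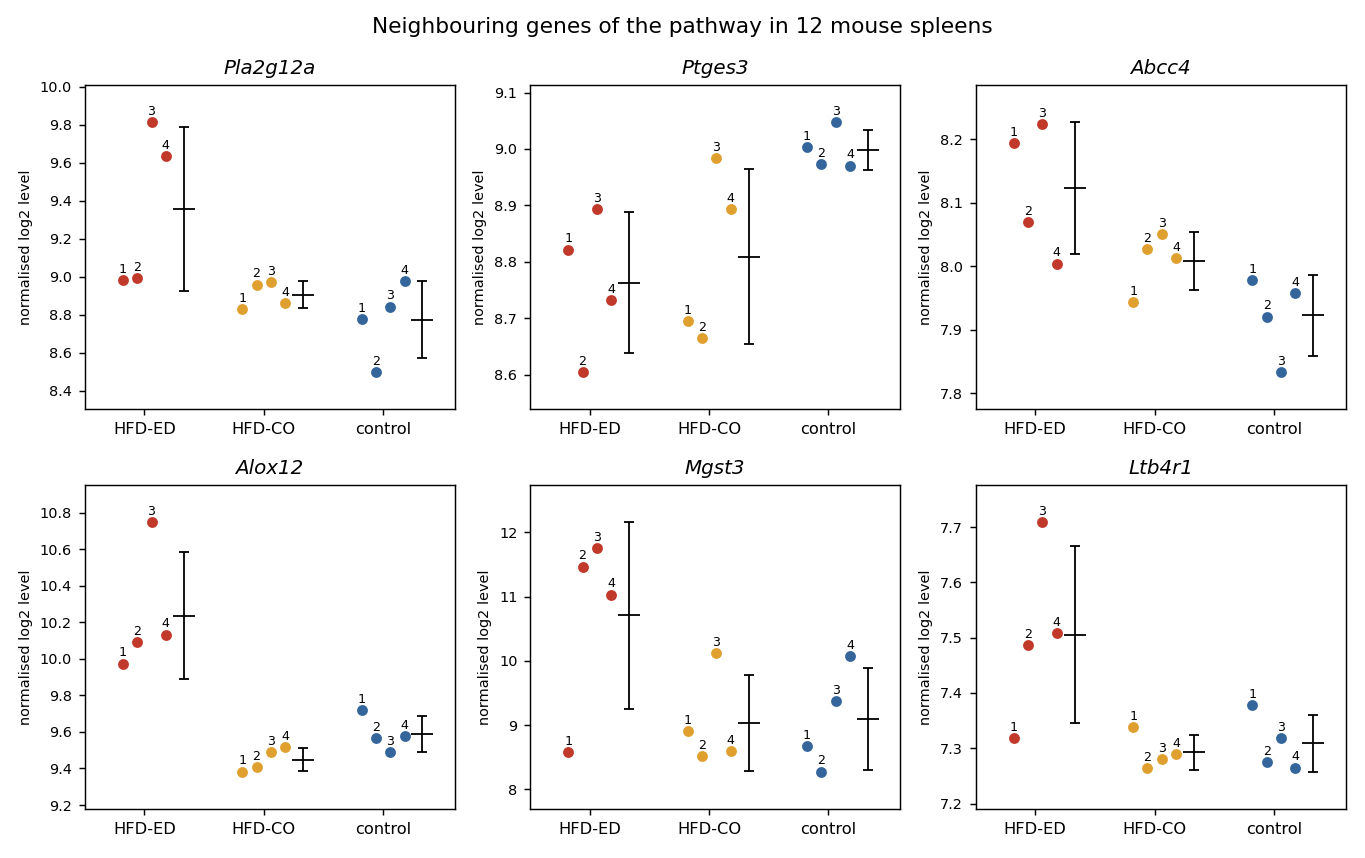
Normalised log2 levels of Pla2g12a, Ptges3, Abcc4, Alox12, Mgst3 and Ltb4r1, with a vertical axis of its own for each gene. Points are mice numbered by replicate, and the bar and whiskers are the mean and 1 SD of 4 mice per diet; the HFD-ED mice lie above all others in Pla2g12a and Alox12, and HFD-ED replicate 1 lies among the other diets in Mgst3 and Ltb4r1.

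Of the 6 receptors for leukotrienes and related lipid mediators, only Fpr2 had a mean of 7.5 or higher. Ltb4r1, the high-affinity leukotriene B4 receptor of granulocytes, was dim, with a mean of 7.37 over the 12 mice. Its levels were 7.32, 7.49, 7.71 and 7.51 in HFD-ED mice, 7.34, 7.26, 7.28 and 7.29 in HFD-CO mice and 7.38, 7.28, 7.32 and 7.27 in control mice. HFD-ED replicates 2, 3 and 4 were above all other mice, as in Alox5. The difference was 0.20 from control (adjusted p = 0.37 from limma) and 0.21 from HFD-CO (unadjusted p = 0.00743, adjusted p = 0.441). Fpr2, a formyl peptide receptor that also binds lipoxin A4, was at 8.88, 9.05, 10.01 and 8.98 in HFD-ED mice, 8.90, 8.58, 8.69 and 8.60 in HFD-CO mice and 8.94, 8.85, 9.74 and 8.93 in control mice. Replicate 3 was the highest mouse of both HFD-ED and control, and the difference of HFD-ED from HFD-CO was 0.53 (adjusted p = 0.571). Granulocytes carry both receptors, and the part of the neutrophil sums given above in either was not tested.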

How the data were processed

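Spleen RNA of 12 mice was measured on Illumina MouseWG-6 BeadChips, 1 array per mouse. The authors extracted intensities with GenomeStudio, applied the variance-stabilizing transformation of lumi (version 2.18.0 in the submitters' processing notes) and quantile normalised the arrays. These deposited log2 values were used as they stand. Probe coordinates were not used, and gene positions are those of RefSeq. Of 45281 probes, 34885 had 1 gene symbol, 18 several and 10378 none, and 4 listed pathway genes, like Ptgs1, had no probe named. No 2 arrays held identical values (0 pairs).

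A single linear model held all 3 diets (limma 3.58.1 under R 4.3.3, lmFit then eBayes, two-sided tests), with Benjamini-Hochberg adjustment over all probes in each comparison. The fit was tested on simulated data. Intervals are at 95%. The precision is limited by the 4 arrays per diet, and whether mice sharing a cage were used was not stated. Members, gene lists and tests were chosen with earlier results of these data known. Named were all members, up to 2 genes of each pathway list with the smallest p over the 3 comparisons, 3 genes of similar pattern per member above the dim line, and genes that the study names for arachidonic acid. Alternatives were a replicate block, other variance models, array weights, normalizations, filters, thresholds and probe choices, and leaving out each mouse. Detection p-values were not used here.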

Additional observations from a re-analysis of the deposited data

Results flagged for a closer look

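Within a diet of 4 mice, the gap of the outermost mouse to its neighbour, divided by the range of the diet, passed Dixon's 95% value in 4 of 69 groups examined, where chance gives about 1 in 20. Alox5 in control replicate 1 was at 7.166, with the other control mice between 7.126 and 7.132, a gap of 0.861 of the range. Cyp4f16 in HFD-ED replicate 3 was at 7.947, with the other HFD-ED mice between 8.268 and 8.333, a gap of 0.83. Fpr2 in HFD-ED replicate 3 was at 10.01, with the other HFD-ED mice between 8.876 and 9.048, a gap of 0.849. Fpr2 in control replicate 3 was at 9.737, with the other control mice between 8.848 and 8.938, a gap of 0.899.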

How the results depend on the processing

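The 27 differences of members kept their side of the threshold in all 597 values from alternative settings. Adjusted p-values from limma were 0.0843 or higher, and 19 of 27 differences never changed sign. An intensity trend, a plain test, a filter or leaving out a mouse of the diet not compared cannot change a difference itself. A kept sign is no support in those settings. Of the 23 sign changes, 19 came from leaving out 1 mouse. Leaving out 1 mouse gave ranges of -0.0293 to 0.00414 for Ptgs2, -0.112 to 0.0745 for Alox5ap and -0.029 to 0.00137 for Lta4h in HFD-ED minus control, of -0.0204 to 0.0117 for Ptgs2, -0.159 to 0.0442 for Ptgis and -0.00453 to 0.0258 for Lta4h in HFD-CO minus control, and of -0.0258 to 0.00731 for Ptgs2 and -0.0303 to 0.0254 for Ptges in HFD-ED minus HFD-CO. The mean of all probes of a gene gave 0.0296 for Alox5ap in HFD-ED minus control, 0.00277 for Ptgs2 in HFD-CO minus control and 0.0126 for Ptges in HFD-ED minus HFD-CO. Leaving out both HFD-CO mice with high pancreatic genes, chosen after seeing the data, gave 0.00977 for Ptges in HFD-ED minus HFD-CO. The causes were not tested.

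Over all probes, the 1 call in HFD-ED minus HFD-CO became 0 with the replicate block, with an intensity trend, with only probes of mean 7.5 or higher, with only the 2 diets compared, at a threshold of 0.001, with a plain test per probe and without both pancreatic mice, and it ran between 0 and 46 leaving out 1 mouse. With 1 probe per gene symbol, HFD-ED minus control had 3 calls instead of 0, and leaving out 1 mouse gave 0 to 87. Both maxima are without HFD-ED replicate 1. Pathway genes called in HFD-ED minus HFD-CO ran between 0 and 1 leaving out 1 mouse. The labels do not state that equal replicate numbers pair mice. With diet means removed, 4 of 12 same-numbered pairs had r over 0.1, and 3 mice had their best match in a mouse of equal number. These counts cannot decide whether mice of equal number shared a batch. With the replicate block, Ptgis in HFD-ED minus control was -0.31 (adjusted p = 0.326 from limma), and no member's call changed. Under the filter on dim probes, the 5 dim members gave no value, and differences at such levels are compressed.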
